A study of Mus musculus with 9 samples.

Results

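The genes described here encode the ligands and receptors of axon guidance: semaphorins, plexins, neuropilins, Slits, Robos, netrins, netrin-Gs, Dcc and the Unc5 receptors, ephrins and Eph receptors. They were chosen by gene symbol and not by level: 68 of the 31052 symbols in the table matched, 35 of them ligands and 33 receptors, in 13 families. Plxna4, Neo1 and a few other partners fall outside the symbol rule and are given at the end. RNA was taken from nuclei of pyramidal cells of the mouse hippocampus, its main excitatory neurons, in animals of wild-type (WT) genotype. Cells had been imaged in vivo with a multiphoton microscope while mice navigated, sorted by activity into place cells, active when the animal is at a certain spot, and silent cells, and marked by light so that their nuclei could be collected. The place group holds 5 libraries and the silent group 4, all from the same tissue, genotype and kit for small amounts of messenger RNA. The labels give no age, sex, agent or number of nuclei per library. Each title names a mouse by 2 numbers, the first (12) shared by all 9 libraries and the second different in each, from 9 to 37. The labels do not say whether these stand for 9 animals or for 9 samples of 1 animal, so p-values measure only the spread between these libraries.

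Guidance molecules were named for steering growing axons by attraction or repulsion. Secreted class 3 semaphorins act through neuropilins joined to plexins, most other semaphorins bind plexins directly, Slits bind Robos, netrins bind Dcc and Unc5 receptors, and membrane-bound ephrins bind Eph receptor tyrosine kinases on the touching cell, with signals running both ways. In the mature hippocampus many of these genes stay on and have been tied to dendritic spines, synapse formation and plasticity.

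Recovered depth per library ran from 14.0 to 22.4 in units of 1000000 reads, and values below are in RPM, reads per 1000000 of the scaled depth, unless a length is named. The libraries were unlike one another. Silent replicate 1, silent replicate 4 and place replicate 3 lay at the ends of the first 3 principal components (22.8%, 16.6% and 15.8% of the variance). Excitatory and CA1 pyramidal markers were abundant throughout, with summed levels of 2592 to 4041 and 1169 to 2272 RPM in place libraries, and 2835 to 4278 and 1795 to 2198 in silent libraries. Of the 12 oligodendrocyte markers, 10 of 11 tested had positive place minus silent folds, none passed the threshold and none was at 0 in every library. Their sum ran from 198 to 3582 RPM in place and from 118 to 596 in silent libraries. Among the tested markers of other lists, folds were positive for 7 of 7 CA3 pyramidal markers (median log2 fold 1.26), 3 of 3 vascular markers (4.36), 6 of 8 astrocyte markers (2.04) and 6 of 8 microglia markers (0.98), but for 2 of 11 CA1 pyramidal (-0.19) and 1 of 8 excitatory markers (-0.13). They were positive for 5 of 7 dentate granule cell (0.44), 5 of 9 interneuron (1.52), 2 of 4 CA2 pyramidal (0.01) and 2 of 4 oligodendrocyte precursor markers (0.70), and no marker passed the threshold. Spock1 (CA3), Dcn (CA1) and Npy (interneuron) had no reads in any silent library. They passed the filter on low values through place libraries alone, so their positive folds in these counts support nothing. Opalin (oligodendrocyte) stood at 0.0711 RPM in silent replicate 1 and had no reads in the other silent libraries. The sum of 10 astrocyte markers was 3015 RPM in place replicate 3 and 201 to 643 in the other libraries. Only 3 of the 9 vascular markers in the table were tested. The vascular list summed to 369 RPM in place replicate 3, of which Col1a1 held 351. It summed to 9.30 to 34.0 RPM in the other place libraries and to 0.213 to 20.1 in silent libraries. The sum of 12 interneuron markers was 984 RPM in silent replicate 3, of which Vip held 639.8 RPM, and 55.1 to 455 in the other libraries. Place libraries held 18603 ± 1936 detected genes (SD, n = 5) and silent libraries 16091 ± 1606 (SD, n = 4), with a two-sided exact permutation p of 0.0952 (adjusted p = 0.154 over 3 library measures). The part of these differences in the values below was not tested, and fewer cells of a type cannot be told apart from less RNA per cell.

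Guidance genes were expressed in every library. Members together took 0.418 to 0.539% of reads, and of the 68, 49.0 ± 4.30 reached 1 RPM per place library (SD, n = 5) and 48.5 ± 6.14 per silent library (SD, n = 4). In all 9 libraries, 24 members stood at 10 RPM or more, 17 of them receptors and 7 ligands. These are called steady below. A further 34, called patchy, had no reads in at least 1 library, and the rest had reads throughout but fell under 10 RPM in at least 1. Of the 612 values (68 genes in 9 libraries), 351 were at 10 RPM or more, 88 between 1 and 10, 13 under 1 RPM with over 3 reads, 16 on at most 3 reads, and 144 without reads. An absence of reads allows a level of up to 0.133 to 0.213 RPM, the worth of 3 reads, for counting error only. The spread over libraries followed the level. For the 20 members with a mean of at least 50 RPM the coefficient of variation was 18.6 to 66.6% (median 32.9%), and for the 30 with a mean of 5 to 50 RPM it was 34.6 to 300% (median 83.0%).

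**Figure D1:**
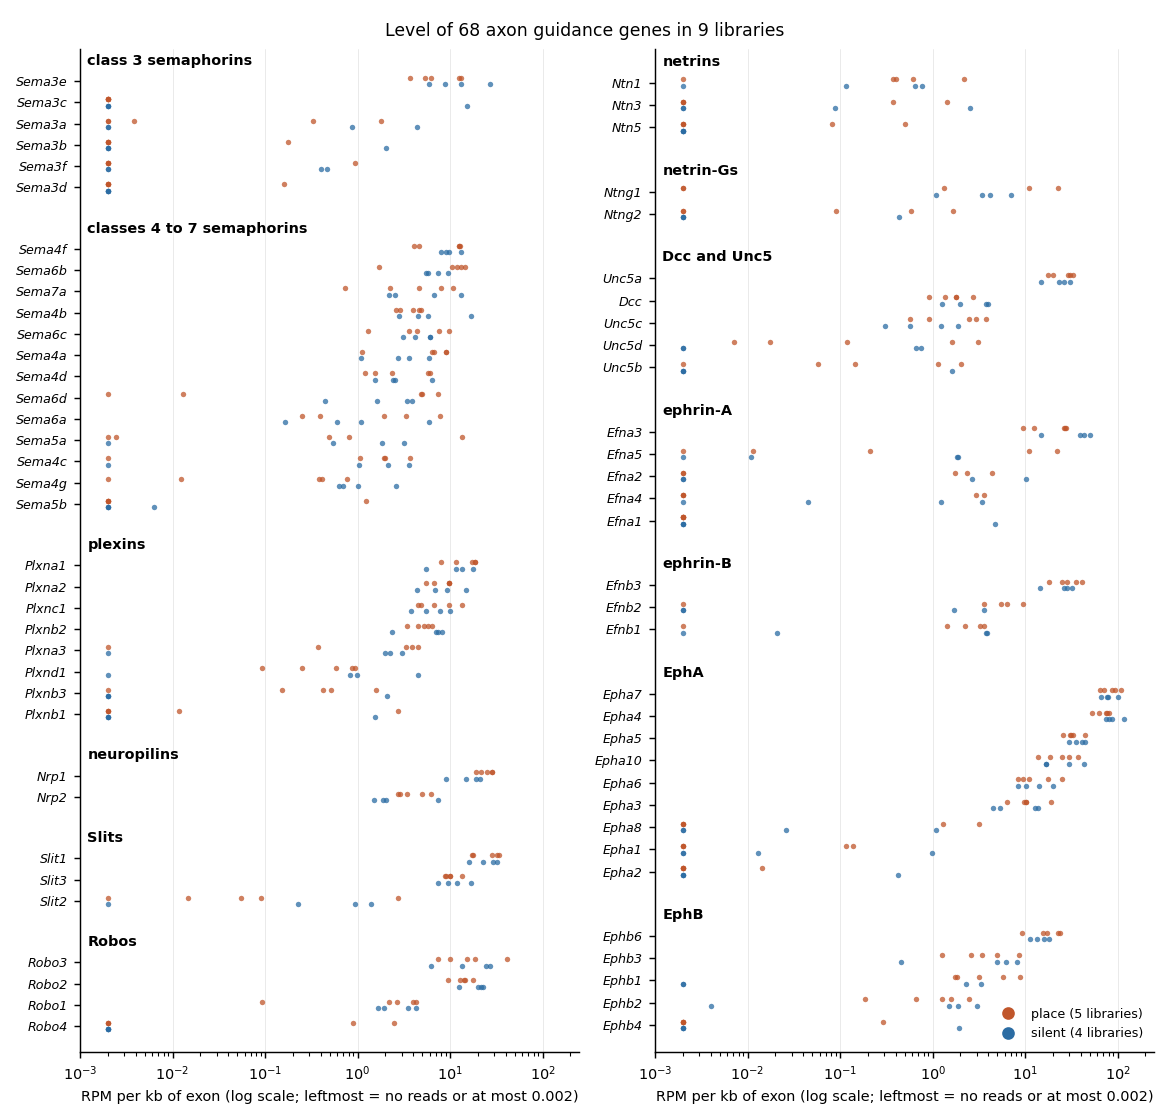
Level of all 68 members in RPM per kilobase of exon (log axis), in panels by family, with place libraries in orange and silent libraries in blue. Points at the left edge stand for no reads or at most 0.002. The EphA receptors Epha7 and Epha4 are farthest right, and 34 members have at least 1 library without reads.

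Per kilobase of exon, a scale that allows for gene length, EphA receptors led. They made up 36.4 to 46.8% of the members' summed level per kilobase in each library. Epha7 stood at 83.1 ± 15.4 RPM per kb (SD, n = 9) and Epha4 at 78.4 ± 17.7, less than 1 SD apart. Epha7 ranked first of the 68 in 6 libraries and Epha4 in the other 3. Epha5 followed at 35.0 ± 6.58 RPM per kb and ranked between 3 and 6. Above 20 RPM per kb were also Efnb3 (27.8 ± 8.19), Efna3 (27.7 ± 14.1), Epha10 (25.7 ± 10.2), Slit1 (25.6 ± 7.26), Unc5a (25.0 ± 6.28) and Nrp1 (20.7 ± 6.27), each mean less than 1 SD below the one before it in this order. So 9 members, 3 of them ligands, lay above 20 RPM per kb, 18 between 5 and 20, 20 between 1 and 5, and 21 under 1. The 2 leading genes of a family were the same per kilobase of coding sequence in 12 of 13 families. In Dcc and Unc5 the 2 leading genes were Dcc and Unc5a per exon kilobase but Unc5a and Unc5c per coding kilobase. Across families, Epha7 (264 RPM per coding kb), Epha4 (213) and Epha5 (188) still led, but the order below them changed. Robo2, not among the 9, stood at 58.2 RPM per coding kb, above Slit1 (32.9) and Unc5a (38.3), and Nrp1 (73.1) passed Epha10 (60.8). Exons of 14 of the 68 overlap those of another gene in the table, 12 of them on the opposite strand, so their reads are less certain. Among members given library by library, the overlap is largest for Efna3 (14.1% of exon length), Ntng2 (14.0%, same strand) and Plxna1 (10.7%).

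Upstream sequence was at hand in RefSeq (GRCm38.p6) for 59 of the 68 members. It is shown to set steady beside other members in CpG content, that is the letters CG, which read the same on both strands and are frequent in many broadly active promoters. In the 250 bases before the start of the gene, members held a median of 17 CpG against 6 over all 27025 genes of that table, taking the window with the most CpG where a gene had several. The genes of that table were not matched to the members by type. At least 1 CpG was present in 98.7% of the members' windows and in 92.1% of all windows. The 20 steady members with a window had a median of 19 (range 4 to 35), and the other 39 had 16 (range 2 to 46), so the ranges overlap widely. Examples are Epha4 (steady, chr1:77515089-77515338, minus strand), Nrp1 (steady, chr8:128358823-128359072, plus strand), Ephb1 (patchy, chr9:102354694-102354943, minus strand) and Sema3a (patchy, chr5:13396534-13396783, plus strand), each read from 5′ to 3′ on the gene's strand with CpG in capitals. Epha4 has 14 CpG, Nrp1 11, Ephb1 10 and Sema3a 2. These examples do not stand for their groups, since steady Sema4f has 4 CpG and patchy Epha8 has 46.
Epha4: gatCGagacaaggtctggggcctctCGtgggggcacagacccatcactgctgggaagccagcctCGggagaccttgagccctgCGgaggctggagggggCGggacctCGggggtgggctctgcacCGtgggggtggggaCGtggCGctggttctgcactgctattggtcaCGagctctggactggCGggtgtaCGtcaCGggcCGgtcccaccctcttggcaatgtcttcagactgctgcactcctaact
Nrp1: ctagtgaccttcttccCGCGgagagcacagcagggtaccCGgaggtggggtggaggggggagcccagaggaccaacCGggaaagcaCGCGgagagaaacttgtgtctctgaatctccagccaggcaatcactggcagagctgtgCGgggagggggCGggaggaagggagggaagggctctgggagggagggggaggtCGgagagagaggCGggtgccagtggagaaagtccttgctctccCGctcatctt
Ephb1: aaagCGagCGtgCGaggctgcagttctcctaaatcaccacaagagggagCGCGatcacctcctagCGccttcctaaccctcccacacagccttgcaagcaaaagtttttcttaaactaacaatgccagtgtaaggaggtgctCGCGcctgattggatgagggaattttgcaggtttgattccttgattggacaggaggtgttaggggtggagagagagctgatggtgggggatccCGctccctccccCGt
Sema3a: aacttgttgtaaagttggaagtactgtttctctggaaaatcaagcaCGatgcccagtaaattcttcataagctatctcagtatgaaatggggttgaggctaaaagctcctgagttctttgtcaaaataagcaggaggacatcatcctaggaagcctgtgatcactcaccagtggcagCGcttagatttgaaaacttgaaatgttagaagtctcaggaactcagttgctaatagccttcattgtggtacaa

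Place and silent libraries were then compared over the whole table with limma. Of 15225 genes tested, 0 passed an adjusted p of 0.05 (0%), the smallest adjusted p being 0.422. Of the 53 members that passed the filter on low values (26 ligands, 27 receptors), 0 passed, with adjusted p from 0.861 to 0.999. By limma-voom on recovered reads, 4 of all genes (0.0263%) and 0 members passed. At an unadjusted p under 0.05 stood 2 of the 53 (3.77%), Nrp1 and Ephb1, beside 771 of all tested genes (5.06%). Place minus silent folds were positive for 31 members (58.5%, counting Plxna2, whose fold is 0.00) and for 59.1% of all genes, and the median log2 fold was 0.07 for members and 0.20 for all genes. Ligands had 11 positive folds of 26 (median -0.10) and receptors 20 of 27 (median 0.17). No tested member had groups that did not overlap, against 1.89% of all tested genes. Leaving out the 3 libraries that stand apart gave 19 positive member folds of 49 (38.8%, against 50.1% of all genes), a median member fold of -0.16 and a median over all genes of 0.00. Since the filter needs 4 libraries, patchy members enter only where enough libraries held them.

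**Figure D2:**
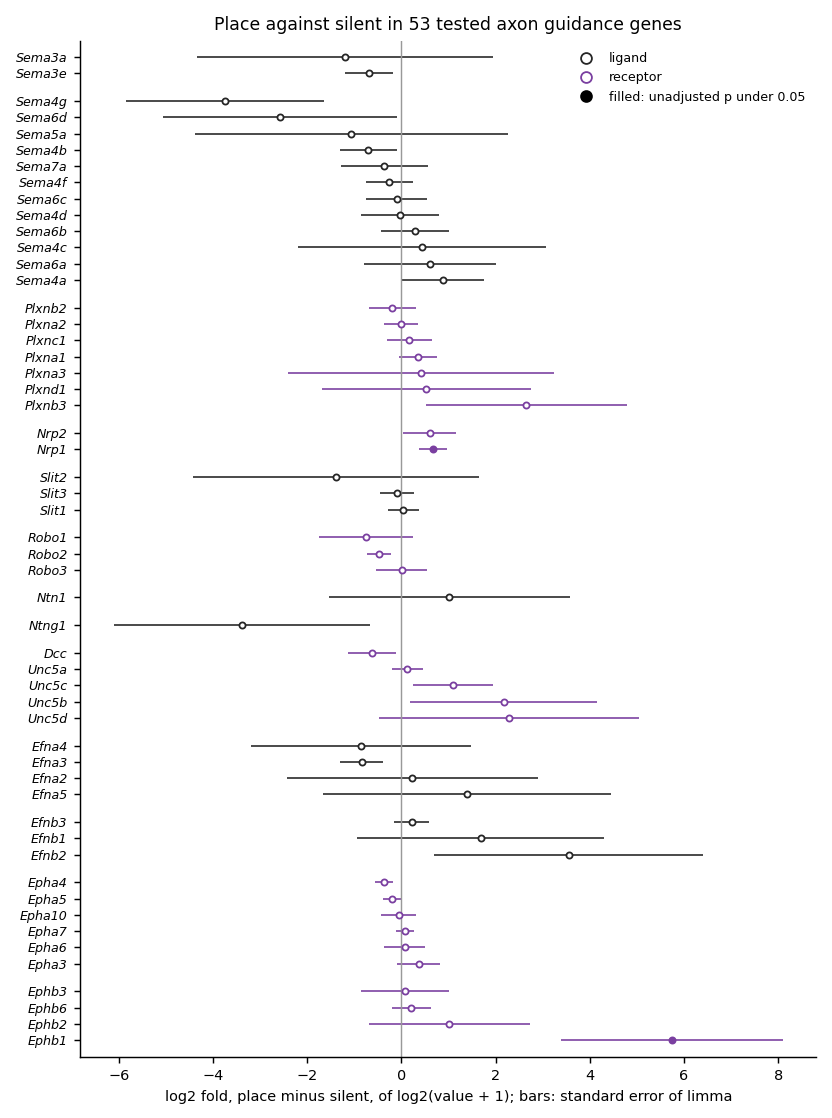
Log2 fold (place minus silent, of log2(value + 1)) of the 53 tested members with limma's standard error, ordered by family, ligands in black and receptors in purple. Filled points, Nrp1 at 0.67 and Ephb1 at 5.74, have an unadjusted p under 0.05, and no member passed after adjustment.

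Among secreted class 3 semaphorins, 1 of 6 members was steady. Sema3e, a ligand of plexin-D1, stood at 121, 33.9, 49.6, 58.1 and 117 RPM in place replicates 1 to 5, and 54.6, 81.5, 249 and 122 in silent replicates 1 to 4. The highest value was in silent replicate 3 and the groups overlapped. Means were 76.0 ± 40.4 RPM over the place group (SD, n = 5) against 127 ± 86.0 over the silent group (SD, n = 4), and the log2 fold was -0.68 ± 0.51 (SE; limma adjusted p = 0.861), or -0.28 without silent replicate 3 and -0.43 without place replicate 2. Sema3c had no reads in 8 libraries and 109 RPM in silent replicate 3, a value that rests on a read unit computed without the check that needs reads in more libraries. That library also has the highest interneuron marker sum (984 RPM), most of it from Vip alone (639.8 RPM). The part of this in its semaphorin values was not tested. Sema3a, the classic repellent for cortical axons, had reads in 5 libraries and ran up to 60.9 RPM. Sema3b, Sema3d and Sema3f had reads in 1 to 3 libraries and stayed under 10 RPM. Without silent replicate 3, the class sum in silent libraries was 96.1 to 134 RPM, and it was 38.7 to 121 in place libraries.

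Membrane-bound semaphorins of classes 4 to 7 were more evenly present, 8 of 13 having reads in all libraries. Sema4f, a transmembrane protein, stood at 65.9, 67.6, 21.5, 65.4 and 24.5 RPM in place replicates 1 to 5, and 51.9, 47.9, 42.6 and 69.1 in silent replicates 1 to 4. Sema6b, which binds class A plexins, stood at 47.4, 51.6, 6.75, 58.3 and 41.3 RPM in place replicates 1 to 5, and 37.3, 22.7, 29.3 and 22.0 in silent replicates 1 to 4. In both genes place replicate 3 was lowest and the groups overlapped, with log2 folds of -0.26 ± 0.50 (SE; limma adjusted p = 0.941) and 0.29 ± 0.72 (SE; limma adjusted p = 0.959). Sema4g, another transmembrane semaphorin, stood at 6.70, 3.32, 0, 3.59 and 0.107 RPM in place replicates 1 to 5, and 8.75, 5.50, 22.7 and 6.01 in silent replicates 1 to 4. All but 1 place library were below the silent range, which begins at 5.50 RPM. Its means were 2.74 ± 2.79 RPM over the place group (SD, n = 5) against 10.7 ± 8.11 over the silent group (SD, n = 4), with a log2 fold of -3.74 ± 2.10 (SE; limma adjusted p = 0.861), or -2.35 without place replicate 3. Sema5a was uneven, with 249.7 RPM in place replicate 3 and no more than 58.9 elsewhere. Place replicate 3 is also the library with the most astrocyte and oligodendrocyte marker RNA, whose part in that value was not tested. The other 9 members had mean levels of 0.985 to 31.4 RPM. Among them, Sema7a, a lipid-anchored ligand of plexin-C1, ran from 2.39 to 43.0 RPM over the 9 libraries, Sema4d, a ligand of plexin-B1, from 9.30 to 48.9, and Sema6a, a ligand of class A plexins, from 1.46 to 68.4, again highest in place replicate 3.

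Plexins, the semaphorin receptors, varied little in sum, at 414 ± 40.9 RPM over the place group (SD, n = 5) against 401 ± 41.0 over the silent group (SD, n = 4). Plxna1 stood at 167, 72.2, 106, 158 and 170.2 RPM in place replicates 1 to 5, and 106, 161, 49.8 and 121 in silent replicates 1 to 4. Plxna2, a receptor for Sema6a, stood at 116, 166, 169, 95.5 and 167 RPM in place replicates 1 to 5, and 159.7, 119, 258 and 75.4 in silent replicates 1 to 4. Silent replicate 3 held the lowest Plxna1 and the highest Plxna2, and both genes overlapped between groups, with log2 folds of 0.35 ± 0.41 (SE; limma adjusted p = 0.881) and 0.00 ± 0.36 (SE; limma adjusted p = 0.999). Without silent replicate 3 they were 0.01 and 0.30, Plxna1 was 0.55 without place replicate 2 and 0.57 without silent replicate 2, and Plxna2 was -0.29 without silent replicate 4. Plxnb3, a receptor for Sema5a, stood at 0.996, 2.76, 10.4, 3.36 and 0 RPM in place replicates 1 to 5, and 13.5, 0, 0 and 0 in silent replicates 1 to 4. It was present in 4 place libraries and 1 silent library, with means of 3.50 ± 4.07 RPM over the place group (SD, n = 5) against 3.38 ± 6.76 over the silent group (SD, n = 4), and its log2 fold was 2.65 ± 2.13 (SE; limma adjusted p = 0.861). Without silent replicate 1 it was 4.62 (limma adjusted p = 0.912), but no silent library in that fit held reads. Plxnb3 then passed the filter on low values through place libraries alone, so that fold and p support nothing. Under quantile normalization the fold was 0.43. The means thus lie close together while the fold on the log scale does not, because that scale weighs libraries without reads. Plxnb1, with reads in 3 libraries, was not tested. The partner of Sema7a, Plxnc1, ran from 31.8 to 112 RPM over the 9 libraries, and that of Sema3e, Plxnd1, from 0 to 33.0 with no reads in silent replicate 1. Plxnb2, which binds class 4 semaphorins, ran from 18.0 to 64.0 RPM.

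Nrp1, the coreceptor through which Sema3a acts and also a receptor for vascular endothelial growth factor, stood at 245, 277, 278, 187 and 209.5 RPM in place replicates 1 to 5, and 144, 186, 206 and 88.6 in silent replicates 1 to 4. The 4 highest values were in place libraries, and place replicate 4 lay between silent replicates 2 and 3, so the groups overlapped. Means were 239 ± 40.7 RPM over the place group (SD, n = 5) against 156 ± 52.0 over the silent group (SD, n = 4), a ratio of 1.53. The log2 fold was 0.67 ± 0.29 (SE; limma adjusted p = 0.861), so the difference passed no adjusted threshold. It moved to 0.21 (limma adjusted p = 0.954) without the 3 libraries that stand apart, and to 0.42 (limma adjusted p = 0.850) without silent replicate 4, in which Nrp1 was lowest. Its adjusted p lay between 0.603 and 0.954 over all alternatives. Nrp2, the coreceptor for Sema3f, stood at 59.3, 74.4, 34.2, 40.9 and 32.3 RPM in place replicates 1 to 5, and 18.0, 22.2, 87.5 and 23.8 in silent replicates 1 to 4. Silent replicate 3 was highest and the other 3 silent libraries lay below every place library. Its log2 fold was 0.60 ± 0.57 (SE; limma adjusted p = 0.862), or 1.11 (limma adjusted p = 0.725) without silent replicate 3, 0.35 without silent replicate 1 and 0.16 without the 3 libraries that stand apart. Together the 2 neuropilins summed to 288 ± 51.7 RPM over the place group (SD, n = 5) against 194 ± 77.1 over the silent group (SD, n = 4).

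**Figure D3:**
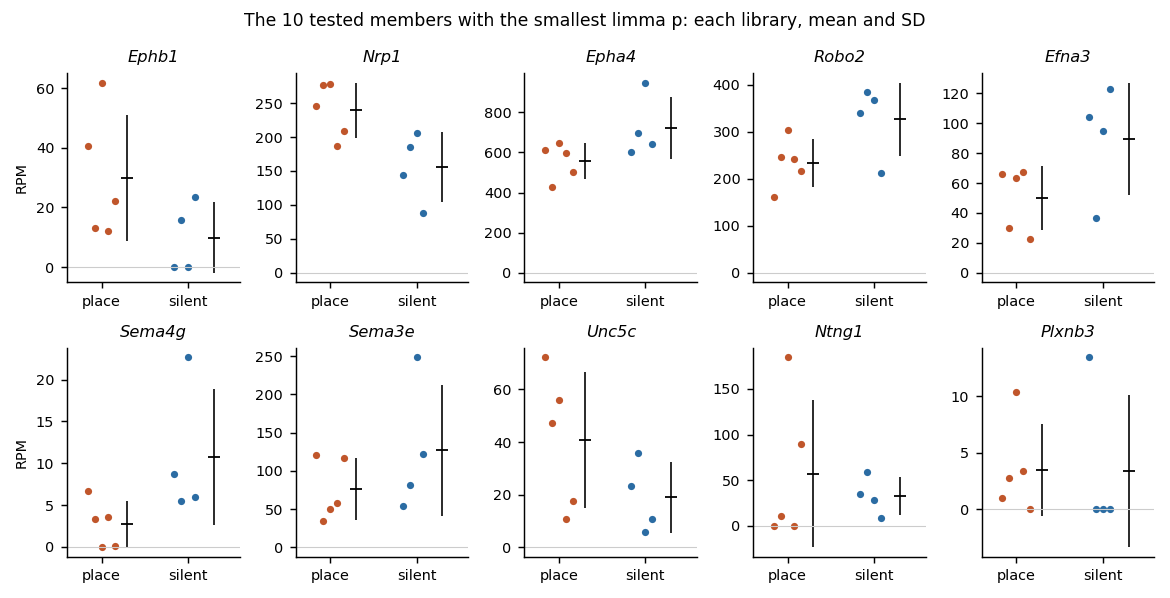
RPM in each library for the 10 tested members with the smallest unadjusted limma p, place in orange and silent in blue, with mean and SD to the right of each group. In every panel the points of the groups overlap.

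Slits, secreted repellents, were led by Slit1 at 169.7, 192, 102, 201 and 104 RPM in place replicates 1 to 5, and 94.1, 192, 136 and 173 in silent replicates 1 to 4. Slit3 was narrower, at 60.5, 81.8, 55.0, 53.6 and 60.4 RPM in place replicates 1 to 5, and 72.2, 58.0, 102 and 44.7 in silent replicates 1 to 4. Neither differed beyond the spread of libraries, with log2 folds of 0.04 ± 0.33 (SE; limma adjusted p = 0.992) and -0.10 ± 0.36 (SE; limma adjusted p = 0.972). Slit2 had reads in 7 libraries and reached 69.7 RPM in place replicate 2. Their Robo receptors summed to 409 ± 125 RPM over the place group (SD, n = 5) against 495 ± 93.0 over the silent group (SD, n = 4). Robo2 stood at 161, 246, 304, 243 and 217 RPM in place replicates 1 to 5, and 341, 384, 369 and 213 in silent replicates 1 to 4. Silent replicates 1 to 3 lay above every place library and silent replicate 4 among them. Means were 234 ± 51.9 RPM over the place group (SD, n = 5) against 327 ± 77.9 over the silent group (SD, n = 4), with a log2 fold of -0.47 ± 0.25 (SE; limma adjusted p = 0.861). Robo3, a receptor of commissural axons that in mammals binds Slits poorly, varied widely, at 68.6, 285, 104, 51.0 and 128 RPM in place replicates 1 to 5, and 43.0, 168, 91.2 and 184 in silent replicates 1 to 4. Its highest and lowest place values differed more than the group means, and its log2 fold was 0.01 ± 0.54 (SE; limma adjusted p = 0.999). Robo1 had reads in all libraries (1.54 to 70.4 RPM), and Robo4, known from blood vessels, in place replicates 1 and 2 alone, at 4.78 and 13.3 RPM.

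The 3 secreted netrins in the table, Ntn1, Ntn3 and Ntn5, were scarce, and their sum never passed 13.7 RPM. Ntn4 is not in the table, so its level is not known. Ntn1, the founding attractant for commissural axons, stood at 0, 2.53, 13.7, 2.36 and 3.90 RPM in place replicates 1 to 5, and 0, 4.04, 0.731 and 4.82 in silent replicates 1 to 4. Place replicate 3 was highest, and the log2 fold was 1.02 ± 2.56 (SE; limma adjusted p = 0.959). Ntn3, not tested, stood at 0, 7.26, 0, 1.91 and 0 RPM in place replicates 1 to 5, and 0, 0.454, 12.9 and 0 in silent replicates 1 to 4. Netrin-Gs, which are tethered to the membrane and bind Lrrc4 family proteins rather than Dcc, were uneven. Ntng1 stood at 0, 11.0, 185, 0 and 89.8 RPM in place replicates 1 to 5, and 34.8, 58.6, 28.3 and 8.97 in silent replicates 1 to 4. The 4 silent libraries all held reads, while 2 place libraries held none and place replicate 3 was highest of all 9. Its means were 57.1 ± 80.7 RPM over the place group (SD, n = 5) against 32.7 ± 20.5 over the silent group (SD, n = 4), whereas the log2 fold was -3.39 ± 2.72 (SE; limma adjusted p = 0.861), so the linear and log scales point in opposite directions. The log2 fold was -1.71 without place replicate 1 and the same without place replicate 4, the place libraries that held no reads. Ntng2 stood at 0, 6.70, 2.34, 0.364 and 0 RPM in place replicates 1 to 5, and 0, 0, 1.71 and 0 in silent replicates 1 to 4.

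The netrin receptors summed to 30.1 ± 6.30 RPM per kb (SD, n = 9), against 1.12 ± 0.878 for the 3 netrins in the table, which lacks Ntn4. Unc5a, a repulsive netrin receptor, stood at 120.5, 126.1, 73.5, 136 and 84.4 RPM in place replicates 1 to 5, and 62.2, 97.5, 127 and 111 in silent replicates 1 to 4. The groups overlapped over most of their ranges and the log2 fold was 0.13 ± 0.33 (SE; limma adjusted p = 0.959). Dcc, the attractive receptor, was steady at a lower level, with 23.4, 12.2, 36.3, 23.6 and 17.8 RPM in place replicates 1 to 5, and 50.1, 16.5, 26.2 and 52.2 in silent replicates 1 to 4. Silent replicates 1 and 4 were highest, and the log2 fold was -0.62 ± 0.51 (SE; limma adjusted p = 0.861), or -0.41 without silent replicate 1, -0.94 without silent replicate 2 and -0.39 without silent replicate 4. Unc5c, also repulsive, stood at 72.3, 47.3, 55.8, 10.9 and 17.6 RPM in place replicates 1 to 5, and 23.3, 35.9, 5.79 and 10.8 in silent replicates 1 to 4. The 3 highest values were in place libraries, with means of 40.8 ± 25.9 RPM over the place group (SD, n = 5) against 19.0 ± 13.5 over the silent group (SD, n = 4) and a log2 fold of 1.10 ± 0.85 (SE; limma adjusted p = 0.861), or 0.64 without silent replicate 3. Unc5b and Unc5d were patchy, with reads in 5 and 7 libraries.

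Ephrin-A ligands, anchored to the membrane by lipid, had 1 steady member of 5. Efna3, a ligand of EphA receptors, stood at 66.1, 30.2, 63.4, 67.4 and 22.9 RPM in place replicates 1 to 5, and 104, 36.4, 94.8 and 123 in silent replicates 1 to 4. Silent replicates 1, 3 and 4 lay above every place library and silent replicate 2 below 3 of them. Means were 50.01 ± 21.6 RPM over the place group (SD, n = 5) against 89.4 ± 37.2 over the silent group (SD, n = 4), with a log2 fold of -0.84 ± 0.46 (SE; limma adjusted p = 0.861). An antisense gene covers 14.1% of its exon length, and the strand setting of the counting is not given, so some of these reads may not be its own. Efna5 stood at 44.6, 0.844, 88.3, 0.0455 and 0 RPM in place replicates 1 to 5, and 0, 7.42, 7.49 and 0.0442 in silent replicates 1 to 4. Place replicates 1 and 3 held most of its reads, and the log2 fold was 1.39 ± 3.06 (SE; limma adjusted p = 0.951). Ephrin-B ligands span the membrane and summed to 136 ± 36.1 RPM over the place group (SD, n = 5) against 96.6 ± 11.1 over the silent group (SD, n = 4). Efnb3 stood at 80.5, 89.8, 132, 112 and 57.5 RPM in place replicates 1 to 5, and 90.3, 84.3, 46.5 and 102 in silent replicates 1 to 4. Its groups overlapped, with a log2 fold of 0.22 ± 0.37 (SE; limma adjusted p = 0.928). Efnb2 stood at 24.8, 43.5, 0, 65.5 and 38.1 RPM in place replicates 1 to 5, and 0, 11.7, 24.8 and 0 in silent replicates 1 to 4. It had no reads in place replicate 3 or in silent replicates 1 and 4, and its log2 fold was 3.55 ± 2.85 (SE; limma adjusted p = 0.861), or 5.50 without place replicate 3 and 2.13 without silent replicate 1 or silent replicate 4.

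EphA receptors, the most abundant family, summed to 2306 ± 277 RPM over the place group (SD, n = 5) against 2491 ± 263 over the silent group (SD, n = 4). Epha7 stood at 931, 699, 1063, 642 and 868 RPM in place replicates 1 to 5, and 777, 999.9, 755 and 654 in silent replicates 1 to 4. Both groups covered nearly the same range, with a log2 fold of 0.07 ± 0.19 (SE; limma adjusted p = 0.962), and the sign turned without place replicate 3 or without silent replicate 4. Epha4, which accepts ephrins of both classes and acts in dendritic spines, stood at 614, 429.7, 645, 599 and 503 RPM in place replicates 1 to 5, and 603, 697, 947 and 644 in silent replicates 1 to 4. Silent replicates 2 and 3 lay above all place libraries, and the other 2 silent libraries within the place range. Means were 558 ± 89.4 RPM over the place group (SD, n = 5) against 723 ± 154 over the silent group (SD, n = 4), with a log2 fold of -0.37 ± 0.19 (SE; limma adjusted p = 0.861), or -0.23 without silent replicate 3. Epha5, Epha10, Epha6 and Epha3 had reads in all libraries, with mean levels of 73.1 to 585 RPM. Their ranges over the 9 libraries were 434 to 737 RPM for Epha5, 100.2 to 312 for Epha10, 44.5 to 131 for Epha6 and 39.0 to 165 for Epha3, and log2 folds lay between -0.19 and 0.37. By contrast Epha8, Epha1 and Epha2 had reads in 2 to 4 libraries and never passed 14.8 RPM.

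EphB receptors summed to 141 ± 28.8 RPM over the place group (SD, n = 5) against 121 ± 25.3 over the silent group (SD, n = 4). Ephb6, whose kinase domain is inactive, stood at 65.5, 90.7, 85.3, 59.4 and 34.5 RPM in place replicates 1 to 5, and 43.1, 68.9, 60.5 and 51.0 in silent replicates 1 to 4. Ephb3 stood at 22.5, 17.3, 8.45, 57.7 and 32.7 RPM in place replicates 1 to 5, and 2.99, 32.7, 54.4 and 40.8 in silent replicates 1 to 4. Silent replicate 1 was lowest for Ephb3 and near the low end for Ephb6, and the log2 folds were 0.21 ± 0.41 (SE; limma adjusted p = 0.943) and 0.08 ± 0.93 (SE; limma adjusted p = 0.994). Ephb1, a receptor for ephrin-B ligands, stood at 40.7, 13.0, 61.8, 12.2 and 22.0 RPM in place replicates 1 to 5, and 0, 15.9, 0 and 23.6 in silent replicates 1 to 4. All 5 place libraries had reads and 2 of 4 silent libraries had none, while the other 2 lay within the place range. Means were 29.96 ± 21.2 RPM over the place group (SD, n = 5) against 9.89 ± 11.8 over the silent group (SD, n = 4), a ratio of 3.03. The log2 fold was 5.74 ± 2.36 (SE; limma adjusted p = 0.861), larger than the ratio of means because of the libraries without reads. It lay between 3.94 and 7.64 when 1 library was left out, with adjusted p between 0.565 and 0.954 over all alternatives. Ephb1 falls outside the 2 highest genes of its family and is described for its p, the smallest among members.

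**Figure D4:**
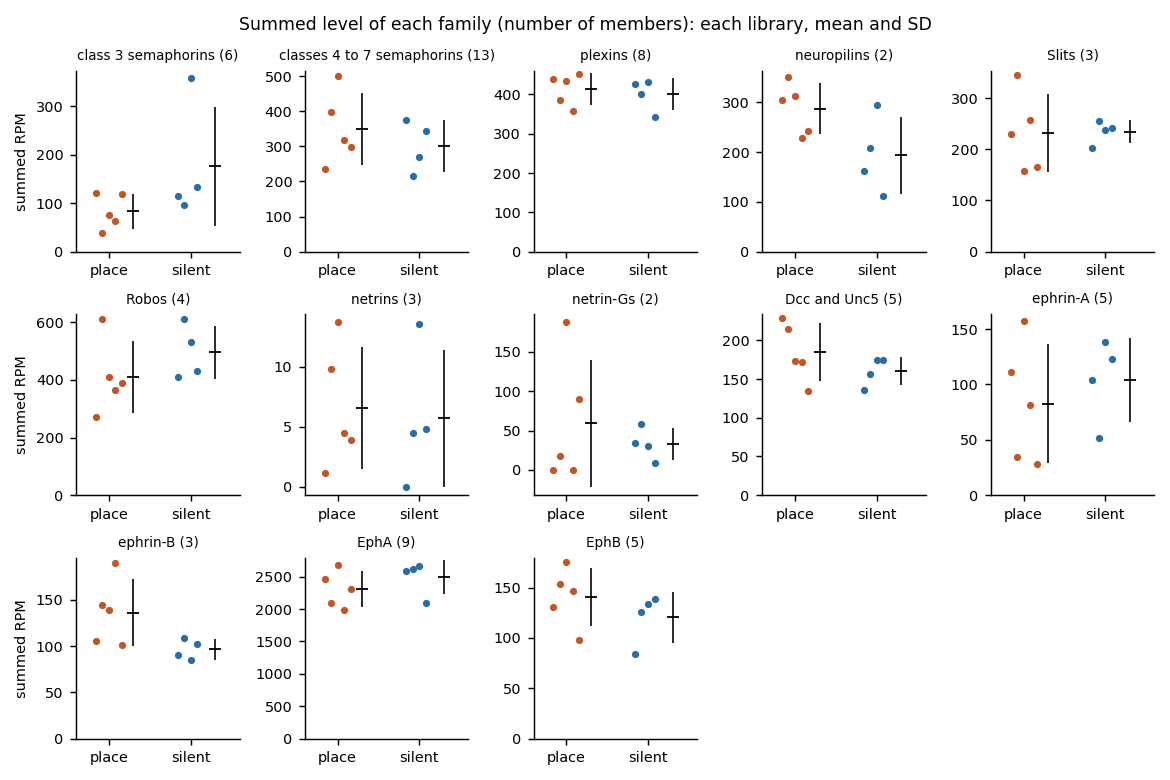
Summed RPM of each of the 13 families in each library (place orange, silent blue), with mean and SD to the right of each group and the number of members in each title. Silent replicate 3 stands high in class 3 semaphorins at 358 RPM, and EphA sums lie between 1993 and 2678 RPM in all libraries.

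No library held the highest value of most members. Place replicate 3 and silent replicate 3 were each highest for 12 of the 68, place replicate 2 for 11, and place replicate 5 for 3. Over all 31052 genes these 4 libraries were highest for 14.0%, 10.2%, 13.3% and 10.5%.

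Other genes of the pathway were taken from 2 lists. Of 31 further guidance ligands, receptors and coreceptors, 29 were in the table and 26 were tested, 14 with positive folds (53.8%, against 59.1% of all genes) and 12 with negative ones. None passed the threshold (limma, smallest adjusted p = 0.861), and the median log2 fold was 0.08. Unadjusted p lay under 0.05 for 2 of the 26 (7.69%, against 5.06% of all genes). These were Flrt3, a membrane protein that binds Unc5 receptors, at 42.0 ± 17.1 RPM over place (SD, n = 5) against 102 ± 48.2 over silent libraries (SD, n = 4; log2 fold -1.25 ± 0.43, SE), and Cntn2, an adhesion molecule of axons, at 95.9 ± 49.5 and 36.3 ± 14.1 RPM (log2 fold 1.30 ± 0.52, SE). By library, Cntn2 stood at 119, 146, 129, 43.8 and 41.7 RPM in place replicates 1 to 5, and 18.2 to 51.7 in silent libraries. The oligodendrocyte marker sum was also highest in place replicates 1 to 3 (1550, 2014 and 3582 RPM, against 118 to 596 elsewhere). Its part in the Cntn2 values was not tested. Plxna4, a semaphorin receptor, stood at 136 ± 37.4 RPM (SD, n = 5) and 96.3 ± 14.4 (SD, n = 4). Lrrc4c, the receptor for Ntng1, stood at 82.5 ± 26.3 and 79.0 ± 30.6 RPM. In 1 gene of this list (3.85%, against 1.89% of all genes) the groups did not overlap: Islr2, a membrane protein with leucine-rich repeats, stood at 8.09 to 37.9 RPM in place and 0 to 7.61 in silent libraries. Its log2 fold was 3.97 ± 1.91 (SE; limma adjusted p = 0.861), and it was singled out after its values were seen.

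Of 79 cytoplasmic effectors, 75 were tested, 47 with positive folds (62.7%) and 28 with negative ones, and 0 passed, with a median log2 fold of 0.20. Unadjusted p lay under 0.05 for 3 of the 75 (4%). Rasa1, a Ras GTPase-activating protein, stood at 109.7 ± 44.1 RPM over place (SD, n = 5) against 203 ± 68.1 over silent libraries (SD, n = 4; log2 fold -0.94 ± 0.36, SE), and Itsn1, an exchange factor scaffold, at 143 ± 59.1 and 70.5 ± 39.2 RPM (log2 fold 1.11 ± 0.47, SE). The remaining one, Farp2, an exchange factor that acts behind class 3 semaphorins, stood at 0.227 to 2.66 RPM in place libraries and rested on 3 reads in all silent libraries together. It passed the filter on low values through place libraries alone, where it is high, so its p supports nothing. It was also the 1 effector (1.33%) whose groups did not overlap.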

How the data were processed

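Nuclear RNA was measured in 9 libraries (5 place, 4 silent). STAR, HTSeq and GRCm39 stand in the submitters' processing notes, and no source used here gives their versions, the annotation, the strand setting or the normalization. The authors deposited a normalized signal. Its values proved to be whole reads multiplied by 1 factor for each gene, with libraries left unscaled. Reads were recovered by dividing by that factor, which was found from the steps between values and from trimmed means of M-values (TMM) with Ezh2 as the reference gene. The ranks trimmed were fitted to the values. All values lay within 0.1 of whole reads in 30692 of 31052 genes. Both ways of finding the factor gave the same answer for 65 of 68 members, and Sema3c, Sema3d and Efna1, with reads in 1 library, rest on the second. On simulated data the procedure returned all reads of 499 of 499 genes, using the same ranks, which it therefore did not test.

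Levels are RPM of the TMM-scaled depth (trims of 30% and 5%), per kilobase of GENCODE vM21 exon union where stated. Each library was divided by its scaled depth before limma 3.58.1 (R 4.3.3), with an intensity trend, compared place minus silent on log2(value + 1). Genes needed a value of 10 or more in 4 or more libraries, and p-values were adjusted by Benjamini-Hochberg over 15225 genes. Library measures were compared by exact permutation (smallest possible p 0.00794). Members and lists were chosen with earlier results of these data known. Values in every library are given for the 2 highest members of each family per kilobase and the 10 with the smallest p (30 members in all). Sema5a and other members outside this rule were singled out after their values were seen. Alternatives changed the scaling, pseudocount, filter, test, covariate and libraries, and the one without the 3 libraries that stand apart was chosen after seeing the data. Floors cover counting error only.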

Additional observations from a re-analysis of the deposited data

Results flagged for a closer look

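In 10 of 89 groups of 4 or 5 libraries looked at, 1 library lay far from the others by Dixon's test at 95%, where chance gives about 1 in 20. For 3 of the 10 (Sema3c, Plxnb3 and Ntng2) the rate cannot hold, since a group with reads in 1 library is always found, and the class 3 semaphorin sum holds Sema3c again. Silent replicate 3 accounted for 5 of them: Sema3c (109 RPM, no reads in any other library), Nrp2 (87.5 RPM), Ntn3 (12.9 RPM), Ntng2 (1.71 RPM) and the class 3 semaphorin sum (358 RPM). Its interneuron marker sum was 984 RPM, against 55.1 to 455 in the other libraries. Most of that sum came from Vip alone (639.8 RPM), and the part of this in the 5 values was not tested. Plxnb3 stood at 13.5 RPM in silent replicate 1 and had no reads in the other silent libraries. The EphA sum was 2100 RPM in silent replicate 4, below the other silent libraries. Slit3 was highest among place libraries in place replicate 2, at 81.8 RPM, as was Ntn3, at 7.26 RPM. Ntn1 stood at 13.7 RPM in place replicate 3.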

How the results depend on the processing

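Over 20 alternatives to the limma fit, 0 members passed the threshold in any. Of 538 fold values of the 27 tested named members, 489 kept direction and side of the threshold and 49, in 15 members, turned sign. Genes past the threshold numbered 4 by limma-voom on recovered reads and 0 to 1 with 1 library left out (1 without place replicate 1). Member folds above 0 numbered 31 of 53, 21 to 31 of 51 to 53 with 1 library left out and 19 of 49 without the 3 libraries that stand apart. Without silent replicate 1 they were 40.4% of members, against 53.6% of all genes, and without place replicate 2, 44.2% against 57.1%. Member shares were above those of all genes without silent replicate 3 (60.8% against 58.9%) and without place replicate 4 (56.9% against 56.2%). The median member fold of 0.07 became -0.22 with genes detected as a covariate (39.6% of member folds positive, against 48.9% of all genes, whose median was -0.03), -0.03 under quantile normalization, -0.16 without the 3 libraries, and -0.10 to 0.19 with 1 library left out. Quantile normalization shifted the median of all genes by -0.19 and the share of positive folds from 59.1% to 50.6% (members 58.5% to 49.1%). Members at 5 RPM or more numbered 43.0 per place library and 45.5 per silent library, the reverse order of the means at 1 RPM (49.0 and 48.5). With the covariate, folds became Dcc 0.14, Efnb2 -0.88, Ephb3 -1.07, Ntn1 -1.72, Plxna2 -0.01, Robo3 -0.66, Sema6b -0.22, Slit1 -0.40 and Unc5a -0.22. Under quantile normalization they became Efna5 -0.62 and Ephb3 -0.30, and by voom Ephb3 -0.11, Robo3 -0.13 and Slit1 -0.01. By median of ratios Plxna2 was -0.01 and Robo3 -0.00. Without the 3 libraries they became Efna5 -4.02, Epha7 -0.16, Ephb3 -0.53, Ephb6 -0.13, Ntn1 -1.22, Plxna2 -0.40, Robo3 -0.22, Sema4f 0.20 and Slit1 -0.00. With 1 library left out, folds ran from -0.20 to 2.93 for Efna5, -0.02 to 0.39 for Efnb3, -0.02 to 0.19 for Epha7, -0.87 to 0.53 for Ephb3, -0.87 to 2.69 for Ntn1, -0.29 to 0.30 for Plxna2, -0.42 to 0.28 for Robo3, -0.17 to 0.17 for Slit1, -0.29 to 0.10 for Slit3, -0.08 to 0.26 for Unc5a, and, with no turn of sign, -0.42 to -0.01 for Sema4f, 0.08 to 0.86 for Sema6b and 0.08 to 0.43 for Ephb6. The cause was not tested. The planned edgeR and DESeq2 fits were not run. No paired analysis was possible because the 1 number that place and silent titles share is the same in all 9 libraries and the other differs in each, so neither forms pairs. Where a member had no reads, depth limits its level to at most 0.133 to 0.213 RPM for counting error only, and RNA lost before sequencing is not covered.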
